A study of Campylomormyrus compressirostris and Campylomormyrus rhynchophorus and Campylomormyrus compressirostris x Campylomormyrus rhynchophorus with 15 samples.

Results

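*NR4A1* and *TIMELESS* are named here for 2 gene models of 34492 in the annotated *Campylomormyrus compressirostris* genome, chosen because both were high in juveniles of that species and both were predicted on the same contig. The *NR4A1* model is maker-ptg000338l-augustus-gene-6.58 and the *TIMELESS* model is maker-ptg000338l-snap-gene-6.187, so both belong to contig ptg000338l and carry the segment number 6. The names come from the study's tables of candidate genes, and the files give neither start, end, strand nor distance for any model. RNA was sequenced from the electric organ, the muscle-derived tissue of the tail that produces the electric organ discharge (EOD) of these weakly electric fish, in 15 juveniles with 1 library per fish. The groups were 5 *com* (*C. compressirostris*, fish com104, com121, com123, com124 and com125), 5 F1 hybrids with a *com* father and a *rhy* mother (comrhy59 to comrhy63) and 5 *rhy* (*C. rhynchophorus*, rhy49 to rhy53). All were bred artificially, raised under laboratory conditions and labelled with a body length of 6 cm. At this size *com* and hybrids produce a short EOD and *rhy* a longer one, so the comparisons ask which genes differ between species and which follow the discharge in hybrids.

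*NR4A1* encodes an orphan nuclear receptor, a DNA-binding transcription factor of the nuclear receptor family for which no required ligand is established. In mammalian cells it is an immediate-early gene, transcribed within a short time of a stimulus, and in mammalian skeletal muscle it is induced by exercise and adrenergic signalling and regulates genes of carbohydrate and lipid use. *TIMELESS* is named after the clock gene of the fruit fly, but the vertebrate protein is best known as a partner of TIPIN in the complex that protects DNA replication forks. The electric organ of juveniles is a growing tissue whose large excitable cells, the electrocytes, arise from muscle.

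Depth differed between groups, with 8346577 to 11549622 expected counts per *com* library, 12973350 to 19259304 per hybrid library and 12502114 to 13927972 per *rhy* library. Values below are counts scaled to a common library size (CPM), with library totals adjusted by the TMM method of edgeR, and the length-scaled TPM of RSEM where levels of different genes are compared, because TPM takes account of the length of each model. The labelled tissue was checked against *SCN4AA*, the sodium channel of the electric organ, and *KCNA7A_1*, a voltage-gated potassium channel. Their summed level was 3562 to 6121 CPM in *com*, 2742 to 3243 CPM in hybrids and 861 to 1096 CPM in *rhy*. Both were present in every fish and lowest in *rhy*, where *SCN4AA* measured 833 to 1072 CPM and *KCNA7A_1* 23.7 to 43.4 CPM. Every *com* fish lay above every *rhy* fish for both, so they show the tissue but not its share in each group. In whole tissue, fewer cells of a type and less RNA per cell cannot be told apart.

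*NR4A1* was abundant in *com* and hybrids and scarce in *rhy*. It measured 926 CPM in com104, 3386 in com121, 2862 in com123, 2835 in com124 and 2619 in com125. In hybrids it measured 643 CPM in comrhy59, 377 in comrhy60, 1575 in comrhy61, 1506 in comrhy62 and 898 in comrhy63, and in *rhy* 2.40 CPM in rhy49, 1.92 in rhy50, 11.9 in rhy51, 6.35 in rhy52 and 12.1 in rhy53. All *com* fish but com104 lay above all hybrids, whereas com104 fell inside the hybrid range, between comrhy63 and comrhy62. No *rhy* fish came near either of the other groups. The lowest hybrid still had 31.1 times the CPM of the highest *rhy* fish, and the lowest *com* fish had 76.4 times that value. Reads of all groups were mapped to the *com* genome, and the part of this in the levels of *NR4A1* and *TIMELESS* was not tested.

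*TIMELESS* was high in *com* alone. The *com* fish gave 97.3 CPM in com104, 135 in com121, 195 in com123, 175 in com124 and 277 in com125. Hybrids gave 38.4 CPM in comrhy59, 46.5 in comrhy60, 24.2 in comrhy61, 24.4 in comrhy62 and 33.9 in comrhy63, against 27.1 CPM in rhy49, 35.3 in rhy50, 46.4 in rhy51, 40.5 in rhy52 and 44.7 in rhy53. Every *com* fish lay above every other fish, and the lowest of them had 2.09 times the CPM of the highest hybrid and 2.10 times that of the highest *rhy* fish. Hybrids and *rhy* overlapped over nearly their whole ranges and did not differ beyond their spread.

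**Figure D1:**
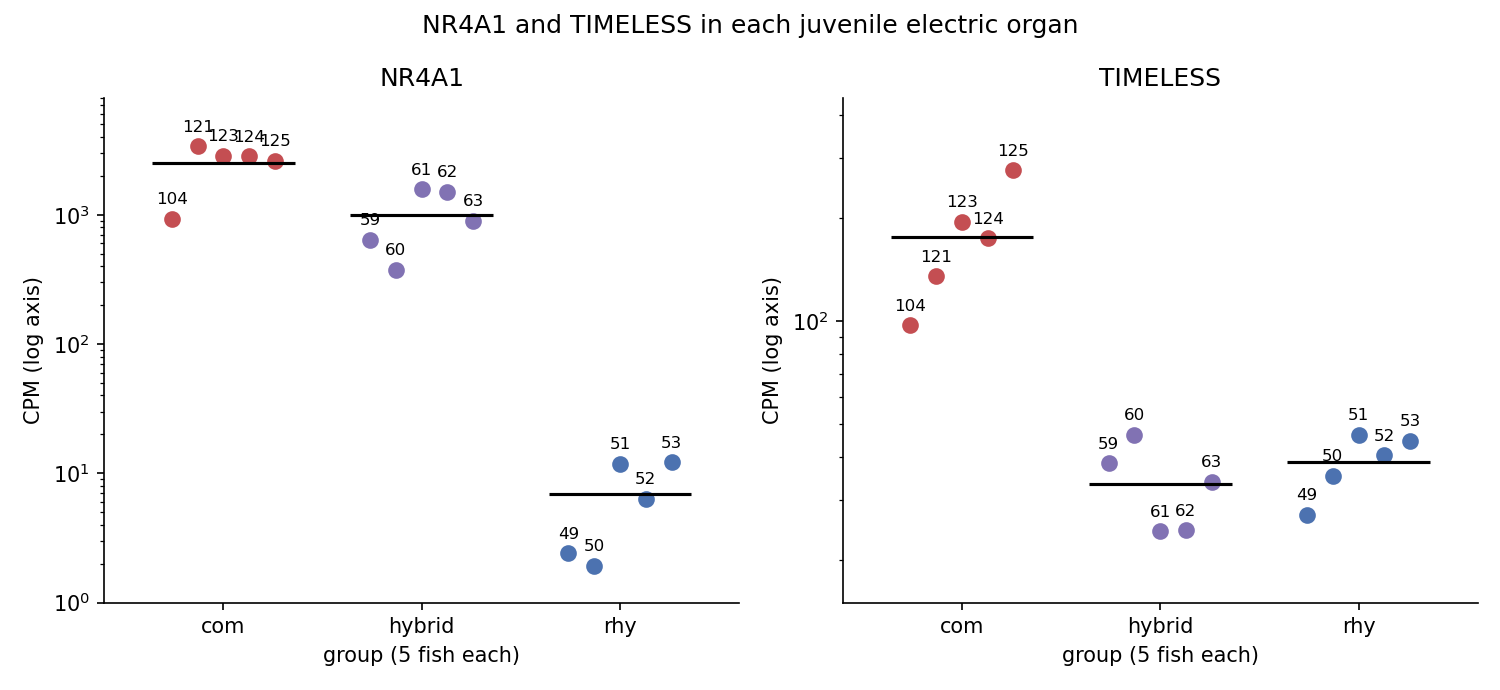
CPM of *NR4A1* (left) and *TIMELESS* (right) on log axes, with 1 point per fish, the fish number beside it and a line at the mean of the 5 fish of each group. *NR4A1* separates *rhy*, at most 12.1 CPM, from *com* and hybrids, at least 377 CPM, while *TIMELESS* separates *com*, at least 97.3 CPM, from hybrids and *rhy*, at most 46.5 CPM.

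Because these levels were the reason for choosing the pair, the fitted differences are given as a description, with no test. For *NR4A1* the fitted log2 fold change was 1.34 ± 0.50 (SE) for *com* over hybrid, 8.50 ± 0.68 for *com* over *rhy* and 7.17 ± 0.65 for hybrid over *rhy*, each with n = 5 fish per group. Among 18489 genes tested, 17 had a larger positive log2 fold change for *com* over *rhy*, 24 for hybrid over *rhy* and 842 for *com* over hybrid. Negative fold changes were not counted, so these are not ranks by size. By the fitted values, the difference between *com* and hybrids was the smallest of the 3 and also the one whose ranges overlapped.

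For *TIMELESS* the fitted log2 fold change was 2.39 ± 0.26 (SE) for *com* over hybrid, 2.18 ± 0.26 for *com* over *rhy* and -0.21 ± 0.25 for hybrid over *rhy*, with n = 5 fish per group. For the first of these, 266 genes had a larger positive log2 fold change, and for the second 1040. Negative ones were again not counted. Complete separation of this kind was common in these data: every *com* fish lay above every hybrid in 7.57% of the genes tested, every *com* fish above every *rhy* fish in 14.6%, every hybrid above every *rhy* fish in 10.6%, every *com* fish above all other fish in 5.35% and every *rhy* fish below all other fish in 6.34%. The *com* libraries enter both contrasts in which *TIMELESS* was high, so those share the same 5 fish.

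The hybrids took different places between their parental species for the 2 genes. Their mean *NR4A1* level was 1000.0 ± 527 CPM (SD, n = 5), which lay at 0.394 of the way up from the *rhy* mean to the *com* mean on a linear scale and at 0.840 of the way on a log2 scale. Single hybrids ranged from 0.147 to 0.623 on the linear scale, and 3 of 5 were below the mean of the 2 parental means, 1266 CPM. For *TIMELESS*, all 5 hybrids were below the corresponding parental mean of 107 CPM, and the hybrid mean was 0.312 of it. Its position was -0.039 on the linear scale and -0.110 on the log2 scale. For *NR4A1* the hybrid mean was thus nearer *com* on the log2 scale but nearer *rhy* on the linear scale. For *TIMELESS* it was near *rhy* on both.

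Per length, *NR4A1* was the more abundant transcript of the pair in every *com* fish and hybrid, and the less abundant one in every *rhy* fish. The TPM of *NR4A1* divided by that of *TIMELESS* was 4.38 in com104, 11.5 in com121, 6.75 in com123, 7.48 in com124 and 4.35 in com125. In hybrids the ratio was 7.69 in comrhy59, 3.72 in comrhy60, 29.9 in comrhy61, 28.3 in comrhy62 and 12.2 in comrhy63, against 0.0410 in rhy49, 0.0252 in rhy50, 0.117 in rhy51, 0.0719 in rhy52 and 0.125 in rhy53. The hybrid range included the whole *com* range, and 3 hybrids exceeded every *com* fish. By TPM rank among all models, *NR4A1* stood at places 136 to 698 in *com* and 348 to 1659 in hybrids, but at 13773 to 18072 in *rhy*. *TIMELESS* stood at places 1048 to 3170 in *com*, 5476 to 8298 in hybrids and 5580 to 7815 in *rhy*.

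**Figure D2:**
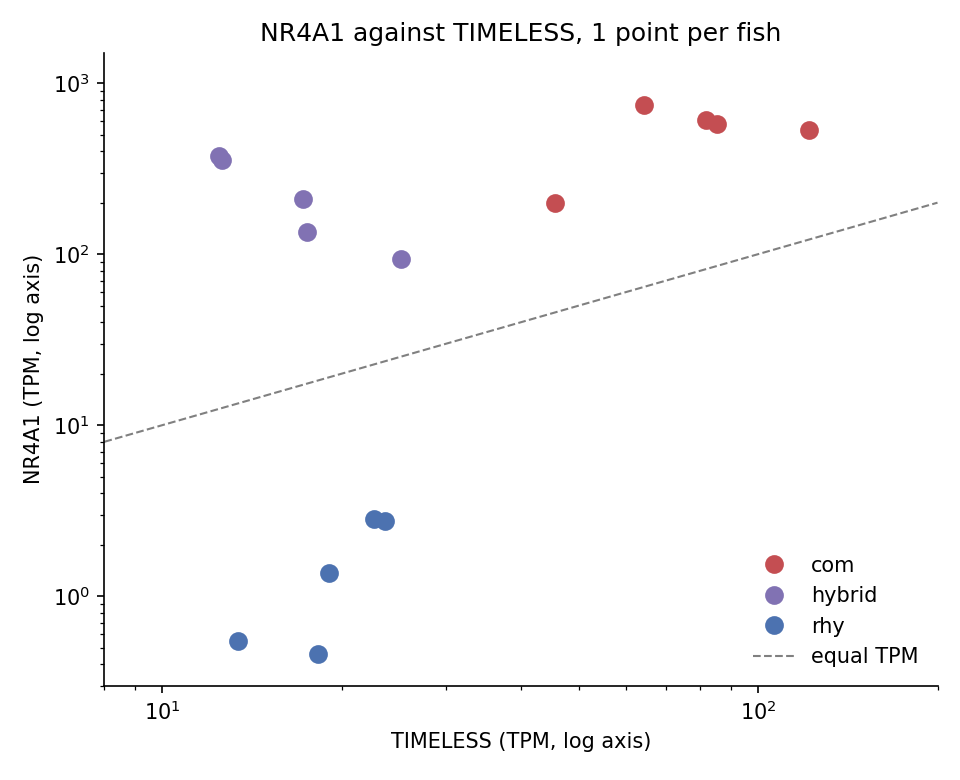
TPM of *NR4A1* against TPM of *TIMELESS* on log axes, with 1 point per fish coloured by group and a dashed line at equal TPM. The *com* fish and hybrids lie above the line and the *rhy* fish below it, and the hybrids with the most *NR4A1* are those with the least *TIMELESS*.

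Within groups the 2 genes did not keep one relation. In *com*, 4 of 5 fish deviated from their group means to the same side for both genes on the log2 scale, the exception being com121, which had the most *NR4A1* and the second lowest *TIMELESS*. In *rhy* all 5 fish deviated to the same side, with rhy49 and rhy50 low and rhy51 to rhy53 high for both genes. In hybrids only comrhy63, the fish nearest to both group means, did so, and the other 4 deviated to opposite sides. The order of the hybrids by *NR4A1*, from comrhy61 over comrhy62, comrhy63 and comrhy59 down to comrhy60, was the reverse of their order by *TIMELESS*. For *TIMELESS*, comrhy61 and comrhy62 were nearly equal, at 24.2 and 24.4 CPM, so their place in that order is uncertain. With 5 fish per group no correlation was computed, and these counts are a description.

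Fish of 1 group differed more in *NR4A1* and *TIMELESS* than in the median gene. The coefficient of variation of *NR4A1* over fish was 37.1% in *com*, 52.7% in hybrids and 71.1% in *rhy*, and that of *TIMELESS* 38.6%, 28.4% and 20.2% in the same 3 groups. The median gene with a group mean above 1 CPM had 23.3% in *com*, 18.2% in hybrids and 18.6% in *rhy*. The *NR4A1* value exceeded that of 74.3% of such genes in *com*, 90.6% in hybrids and 97.9% in *rhy*, and the *TIMELESS* value that of 76.1%, 71.8% and 54.3% in the same 3 groups. In edgeR's fit the dispersion of *NR4A1*, a measure of the spread between fish beyond counting, was 0.297 against a trend of 0.0710 for genes of its abundance, while *TIMELESS* had 0.0823 against 0.0570.

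RSEM gives a fractional count where reads are divided between models. Neither gene had one in any of the 15 fish, whereas 10.8% of the models tested had at least 1. *NR4A1* received 10135 to 35574 counts per *com* library, 6800 to 25426 per hybrid library and 27 to 177 per *rhy* library, so the *rhy* levels carry the largest counting error. *TIMELESS* received 1064 to 2343 counts in *com*, 340 to 838 in hybrids and 361 to 662 in *rhy*. The *NR4A1* model is 8821 bases long, longer than 99.4% of all models, and the *TIMELESS* model is 4200 bases long, longer than 91.6%, with a median of 1353 bases over all models. Whether the long *NR4A1* model joins more than 1 transcript was not tested.

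The other models of the contig were called about as often as genes in general. Segment 6 holds 21 other models, of which 17 passed the count filter. They were tested in edgeR by quasi-likelihood, p was adjusted over all genes by Benjamini and Hochberg, and a gene was called where adjusted p was under 0.05 and the log2 fold change passed 1 in either direction. In *com* against hybrids 1 of the 17 was higher and 0 were lower, where 9.08% of all genes tested were called, 4.42% higher and 4.66% lower. For *com* over *rhy*, 2 were higher and 1 was lower, which is 17.6% of the 17 against 22.8% of all genes, 13.1% higher and 9.75% lower. For hybrid over *rhy* also 2 were higher and 1 was lower, 17.6% against 12.1% of all genes, 7.64% higher and 4.45% lower. Their median log2 fold change was 0.02, 0.08 and 0.04 in these 3 contrasts, beside -0.03, 0.02 and 0.05 over all genes tested. Over the whole contig, with 36 of 47 other models tested, 2 were higher and 1 lower for *com* over hybrid, which is 8.33%, 5 higher and 2 lower for *com* over *rhy*, 19.4%, and 4 higher and 2 lower for hybrid over *rhy*, 16.7%. Shares near the background give no result particular to this stretch of the contig. The single segment call of *com* over hybrid was lost, leaving 0, without any one of com121, com124, com125, comrhy59, comrhy60, comrhy61 or comrhy62, and without com124 the count over the contig dropped to 1. One of the 2 models called higher in hybrids than in *rhy* lost its call without any one of comrhy60, comrhy62, rhy49, rhy50, rhy51 or rhy52 and in a fit of those groups alone, with adjusted p between 0.0555 and 0.137.

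Among the neighbours called higher in *com* than in *rhy*, maker-ptg000338l-snap-gene-6.168 had the larger fold change. It had 8.04 CPM in com104, 40.4 in com121, 24.1 in com123, 36.6 in com124 and 40.6 in com125. Hybrids had 13.9 CPM in comrhy59, 11.3 in comrhy60, 10.05 in comrhy61, 9.18 in comrhy62 and 23.3 in comrhy63, against 4.58 CPM in rhy49, 3.06 in rhy50, 6.17 in rhy51, 6.03 in rhy52 and 7.13 in rhy53. As for *NR4A1*, com104 was the lowest *com* fish and lay above every *rhy* fish, but here it was also below every hybrid. Its log2 fold change was 1.14 ± 0.37 (SE, adjusted p = 0.037) for *com* over hybrid, 2.47 ± 0.39 (adjusted p = 0.000103) for *com* over *rhy* and 1.33 ± 0.38 (adjusted p = 0.0162) for hybrid over *rhy*. The first of these was the call that leaving out any one of 7 fish ended, with adjusted p between 0.0613 and 0.0849, and a fit of *com* and hybrids alone gave 0.0693.

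The second neighbour called higher in *com* than in *rhy*, maker-ptg000338l-snap-gene-6.180, averaged 178 ± 39.4 CPM (SD) in *com*, 102 ± 13.8 CPM in hybrids and 70.7 ± 1.61 CPM in *rhy*, with n = 5 each. Its log2 fold change for *com* over *rhy* was 1.33 ± 0.13 (SE, adjusted p = 1.18e-06). It had fractional counts in all 15 fish, so part of its reads was shared with other models and its level is uncertain. Unlike the pair, it was highest in com104, at 244 CPM. The only segment neighbour called lower in *com* than in *rhy*, maker-ptg000338l-augustus-gene-6.100, averaged 4.50 ± 1.06 CPM (SD) in *com*, 5.08 ± 1.11 CPM in hybrids and 13.9 ± 2.81 CPM in *rhy*, which is -1.62 ± 0.22 on the log2 scale for *com* over *rhy* (SE, adjusted p = 2.03e-05). None of these 3 models has a name in the sources used here.

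**Figure D3:**
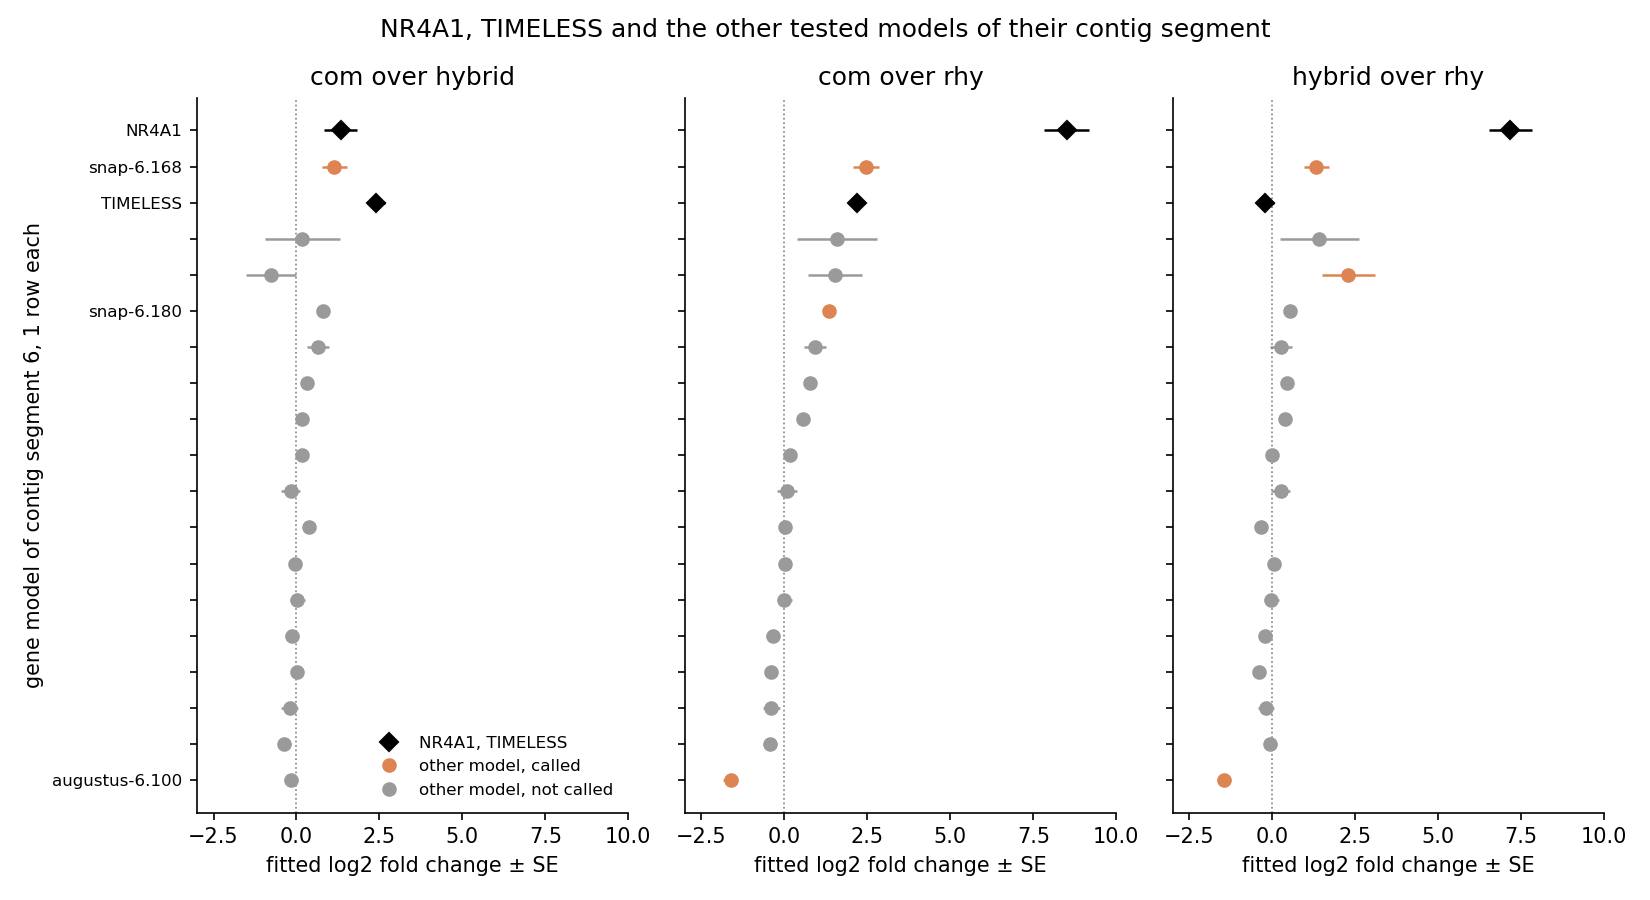
Fitted log2 fold change ± SE of *NR4A1*, *TIMELESS* (black diamonds) and the 17 other tested models of contig segment 6, ordered by *com* over *rhy*, with orange for models called and grey for the rest. *NR4A1*, at 8.50 for *com* over *rhy* and 7.17 for hybrid over *rhy*, exceeds all other models in both, and the values of the 17 for *com* over *rhy* lie between -1.62 and 2.47.

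The genes whose profile over the 15 fish was most like each member were sought among 134 tested models that the study's tables name, by the root mean square difference of log2 CPM after subtracting each gene's mean. Many of these models come from the study's clusters that follow EOD duration, and both members are in the cluster that falls as it rises. These juveniles were among the fish clustered, so likeness between named genes was partly set by selection. For *NR4A1* the 5 nearest were *KCNA7A_1* at 2.08, *MYOCD* at 2.61, *PDE6A* at 2.62, *TRIM39* at 2.64 and *PCDH11* at 2.65. These distances are large beside the nearest of all models, at 0.838, and 119 of all models tested were nearer than *PCDH11*. Over the 5 *rhy* fish together, *MYOCD* had 16 counts, *PDE6A* 4 and *TRIM39* 2, so their *rhy* levels carry a large counting error. *KCNA7A_1* measured 854 to 1151 CPM in *com*, 217 to 279 CPM in hybrids and 23.7 to 43.4 CPM in *rhy*, without overlap between any groups, but it had fractional counts in all 15 fish, so its level is uncertain, also as a marker of the tissue.

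For *TIMELESS* the nearest named genes were *EGLN3* at 0.537, *OSBPL1A* at 0.693, *PPP1R3A* at 0.748, *COL4A6* at 0.749 and *ANKRD11* at 0.754. *EGLN3* encodes an oxygen-dependent prolyl hydroxylase that is itself induced by low oxygen in mammalian cells. It measured 2706 CPM in com104, 4439 in com121, 6269 in com123, 7183 in com124 and 6086 in com125, with 1611 to 1893 CPM in hybrids and 964 to 1200 CPM in *rhy*. As for *TIMELESS*, the lowest *com* fish was com104, and com121 came next. Here 367 models were nearer than *ANKRD11*, and the nearest of all lay at 0.349. The 2 members were 3.47 apart, and of 18488 models compared, 1967 were nearer to *NR4A1* than *TIMELESS* was and 18454 were nearer to *TIMELESS* than *NR4A1* was. The distance was not scaled for the size of a gene's changes. The root mean square of the profile itself was 3.92 for *NR4A1* and 1.13 for *TIMELESS*. These counts therefore depend on that size as well as on the pattern.

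**Figure D4:**
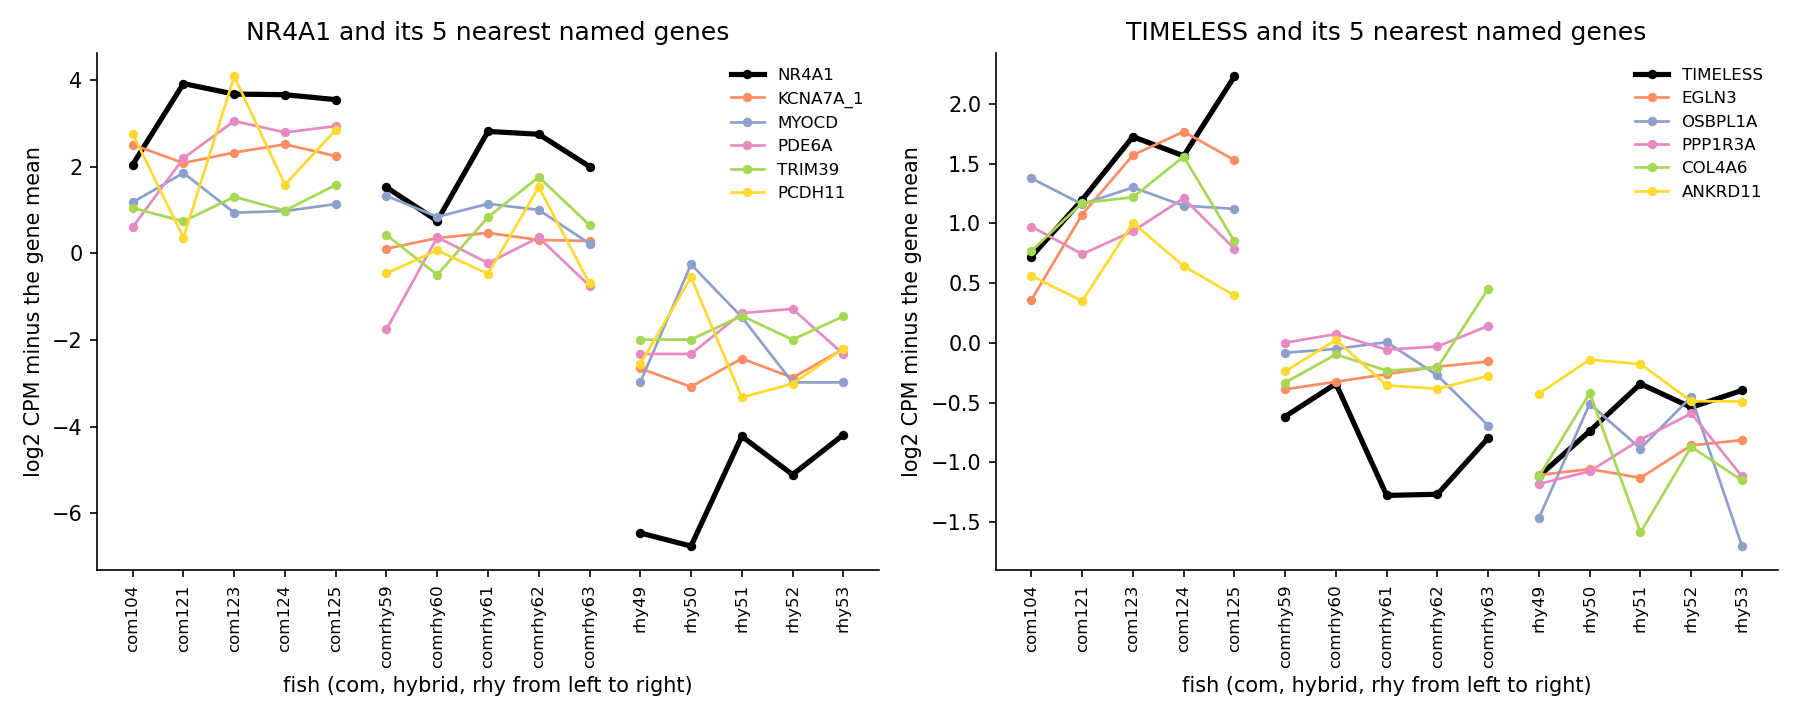
Log2 CPM minus the gene's mean over all fish for *NR4A1* (left) and *TIMELESS* (right) in black and the 5 nearest named genes of each in colour, with the fish in the order *com*, hybrid, *rhy*. The *rhy* values of *NR4A1* lie below those of all 5 genes beside it, while *TIMELESS* lies above its 5 genes in com121, com123, com125 and rhy53 and below them in all 5 hybrids, farthest in comrhy61 and comrhy62.

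Pathway genes were taken from 6 lists with 40 names from the study's tables, of which 39 were matched to a model and 37 were tested. The study selected these names partly on the same libraries, so their directions are not independent evidence. Of all 37, 4 were higher and 2 lower for *com* over hybrid, 20 higher and 3 lower for *com* over *rhy*, and 14 higher and 2 lower for hybrid over *rhy*. These shares are 16.2%, 62.2% and 43.2%, beside 9.08%, 22.8% and 12.1% of all genes called in the same 3 contrasts. Besides *KCNA7A_1*, fractional counts occurred in 8 fish for *PLA2G4AB*, 7 for *SCARF1* and 3 for *LCP1*, and in no other gene of the lists. The median log2 fold changes of all 37 were 0.18, 1.04 and 0.80 in the 3 contrasts, beside -0.03, 0.02 and 0.05 over all genes.

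Genes that stimuli induce in other cells, the class to which *NR4A1* belongs, were called in both directions. Of 7 tested, 1 was higher and 0 were lower in *com* than in hybrids, 2 were higher and 1 was lower in *com* than in *rhy*, and 1 was higher and 0 were lower in hybrids than in *rhy*. These shares are 14.3%, 42.9% and 14.3%, beside 9.08%, 22.8% and 12.1% of all genes. *EGLN3* was the gene higher in *com* than in hybrids, at 1.60 ± 0.20 on the log2 scale (SE, adjusted p = 5.83e-05). *CYR61*, a secreted protein induced by growth factors, averaged 15.2 ± 11.5 CPM (SD) in *com*, 25.6 ± 5.61 CPM in hybrids and 4.17 ± 4.59 CPM in *rhy*. Among *com* fish, com104 at 34.7 CPM lay above every hybrid. *CYR61* was not called for *com* over hybrid (-0.74 ± 0.55, SE, adjusted p = 0.363). For hybrid over *rhy* its log2 fold change was 2.62 ± 0.59 (SE, adjusted p = 0.00402). Its call for *com* over *rhy*, 1.88 ± 0.59 (adjusted p = 0.0162), was lost without com104 (1.31, adjusted p = 0.0625). *BHLHE40*, a stimulus-induced repressor linked to the circadian clock, had 100 ± 64.0 CPM in *com*, 111 ± 7.44 CPM in hybrids and 137 ± 19.1 CPM in *rhy* and passed in no contrast.

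The count of stimulus-induced genes called for *com* over hybrid became 2 without com104 or comrhy59, through *RGS4*, a regulator of G protein signalling, then called higher in *com*. It also became 2 without comrhy61, through a gene called lower in *com*. For hybrid over *rhy* the count became 2 without com104 or com125 and 3 without comrhy59, and the added calls were all lower in hybrids than in *rhy*. *RGS4* averaged 4.16 ± 3.28 CPM in *com*, 1.78 ± 0.92 CPM in hybrids and 3.78 ± 1.09 CPM in *rhy*.

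Of 9 other transcription regulators tested, 1 was higher and 1 lower for *com* over hybrid, 4 were higher and 0 lower for *com* over *rhy*, and 4 were higher and 0 lower for hybrid over *rhy*. These are 22.2%, 44.4% and 44.4%, beside 9.08%, 22.8% and 12.1% of all genes. The study placed these regulators, among them *SMAD3*, *SOX11* and *MYOCD*, in its cluster whose expression falls as EOD duration rises. These juveniles were among the fish clustered, so the direction was partly set by selection and the counts are no result about regulators. *SMAD3*, a signal transducer of the TGF-beta pathway, was likewise high in *com*, with 7.97 ± 3.82 CPM (SD) in *com*, 1.27 ± 0.49 CPM in hybrids and 0.933 ± 0.608 CPM in *rhy*, and was 2.63 ± 0.50 higher on the log2 scale in *com* than in hybrids (SE, adjusted p = 0.00172). *SOX11*, a transcription factor of progenitor cells, and *MYOCD*, a coactivator of muscle genes, were instead low in *rhy* only. *SOX11* had 10.9 ± 6.29 CPM in *com*, 11.2 ± 3.53 CPM in hybrids and 3.20 ± 1.07 CPM in *rhy*, and *MYOCD* 2.72 ± 0.84 CPM in *com*, 2.17 ± 0.60 CPM in hybrids and 0.227 ± 0.371 CPM in *rhy*. A model named *DACH1_2*, for a transcriptional cofactor of development, was lower in *com* than in hybrids, at -1.52 ± 0.37 (SE, adjusted p = 0.00778).

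Carbohydrate and lipid genes, the field in which *NR4A1* acts in mammalian muscle, were mostly higher in *com* than in *rhy*. This direction was partly set by selection. The study placed *CPT2*, *FADS6*, *PLA2G4AB*, *ABHD6*, *HPGD* and *PPP1R3A* in a cluster whose expression falls as EOD duration rises. It placed *LPL* in a rising cluster. These juveniles were among the fish clustered, so the counts below are no result about the pathway. Of 9 tested, 8 were higher and 0 lower for *com* over *rhy*, 4 higher and 0 lower for hybrid over *rhy*, and 1 higher and 0 lower for *com* over hybrid. Over all genes 13.1%, 7.64% and 4.42% were higher in these 3 contrasts. For *com* over *rhy*, *OGT* fell under the fold limit without any one of com104, com124, rhy49 or rhy53, and *CPT2* without com121. The call of *HPGD* for hybrid over *rhy* was lost without any one of 13 fish. *FADS6*, of the fatty acid desaturase family, had 77.1 ± 14.3 CPM (SD) in *com*, 44.7 ± 4.85 CPM in hybrids and 13.4 ± 4.28 CPM in *rhy*, which is 2.53 ± 0.19 on the log2 scale for *com* over *rhy* (SE, adjusted p = 7.53e-08). *PLA2G4AB*, a cytosolic phospholipase, rose by 3.12 ± 0.30 (adjusted p = 6.92e-07) and *PPP1R3A*, which directs protein phosphatase 1 to glycogen, by 1.88 ± 0.12 (adjusted p = 1.63e-08) in the same contrast. *OSBPL1A*, a sterol-binding protein, was the one also higher in *com* than in hybrids, at 1.43 ± 0.21 (adjusted p = 0.000251). *LPL*, which releases fatty acids from lipoproteins, measured 106 ± 21.6 CPM in *com*, 93.4 ± 22.6 CPM in hybrids and 106 ± 20.2 CPM in *rhy* and passed in no contrast.

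Only 3 replication and division genes were named and tested beside *TIMELESS*. None was called between *com* and hybrids by edgeR, where 9.08% of all genes were called, and none had an unadjusted p under 0.05 in that contrast. For *com* over *rhy* and for hybrid over *rhy*, 1 of the 3 was called, beside 22.8% and 12.1% of all genes. With so few genes these counts give no result about replication. *WDHD1*, a replication fork protein, averaged 1.40 ± 0.65 CPM (SD) in *com*, 0.561 ± 0.349 CPM in hybrids and 0.0548 ± 0.1226 CPM in *rhy*. It was called higher both in *com* than in *rhy* (adjusted p = 0.000804) and in hybrids than in *rhy* (adjusted p = 0.015). Its counts were few, with 62 over all *com* fish, 50 over all hybrids and 4 over all *rhy* fish. *WDHD1* thus passed the count filter only through *com* and hybrid fish, where it was high. The study also placed it in the falling cluster, so these calls are no independent evidence. Its hybrid and *rhy* ranges overlapped. In *rhy* it was at 0 in every fish but rhy53. *USP44*, a deubiquitinase of the spindle checkpoint, had 6.50 ± 0.92 CPM in *com*, 6.46 ± 1.32 CPM in hybrids and 5.68 ± 1.27 CPM in *rhy*. *HMGB3*, a chromatin protein, had 105 ± 18.3 CPM in *com*, 115 ± 15.2 CPM in hybrids and 205 ± 18.2 CPM in *rhy*, and its log2 fold change of -0.97 for *com* over *rhy* missed the fold limit. Without com123 or com124 it passed, at -1.03 and -1.04, which made the count for *com* over *rhy* 2 in place of 1.

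**Figure D5:**
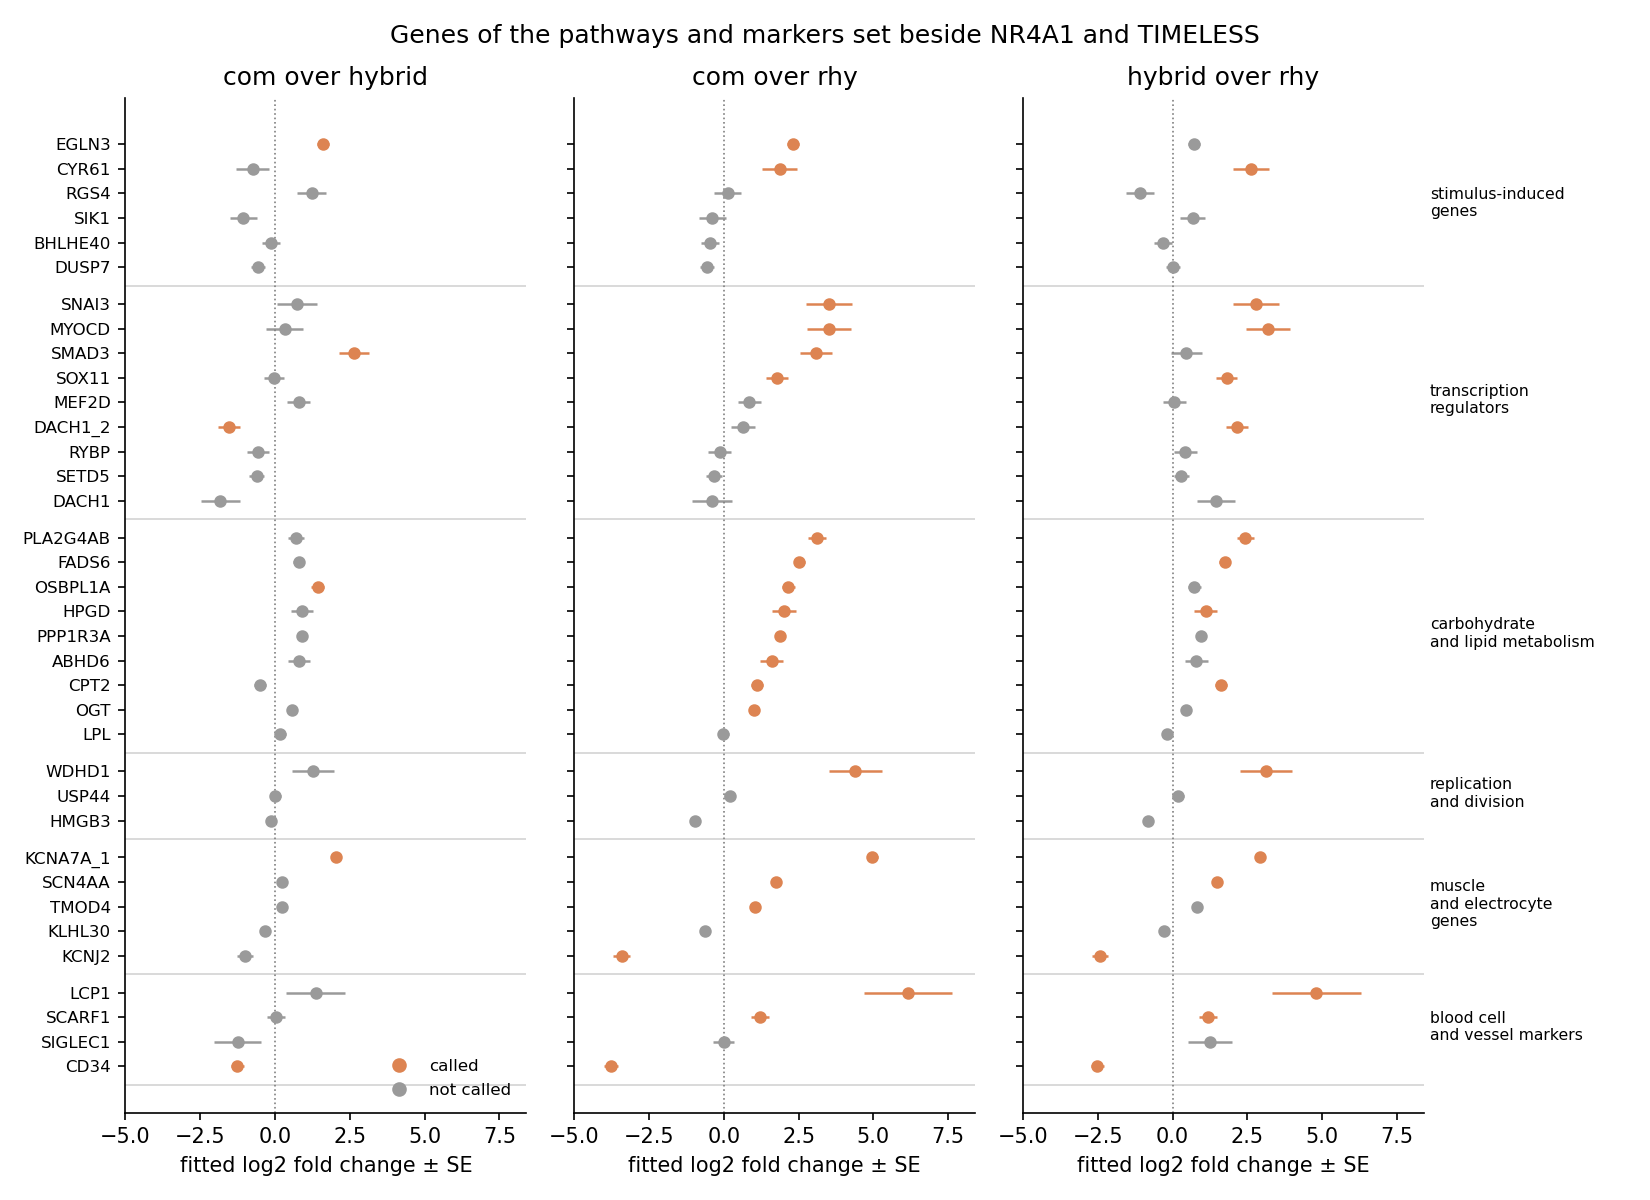
Fitted log2 fold change ± SE of the tested genes of the 6 lists, except 1 stimulus-induced gene not reported here, in each contrast, with orange for genes called and grey for the rest; *MYOCD* and *MEF2D* belong to 2 lists and are drawn once, under transcription regulators. The carbohydrate and lipid genes lie mostly to the right of 0 for *com* over *rhy*, where 8 of 9 were called higher, while the stimulus-induced genes lie on both sides. Several of the carbohydrate and lipid genes come from the study's cluster that falls as EOD duration rises.

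Channel and muscle genes of the electrocyte moved in both directions. Of 7 tested, 1 was higher and 0 lower for *com* over hybrid, 4 higher and 1 lower for *com* over *rhy*, and 3 higher and 1 lower for hybrid over *rhy*. These are 14.3%, 71.4% and 57.1%, beside 9.08%, 22.8% and 12.1% of all genes. *KCNA7A_1* was higher in *com* than in hybrids, by 2.04 ± 0.15 on the log2 scale (SE, adjusted p = 4.17e-07). The study placed *KCNJ2* in a cluster that rises with EOD duration and *NR4A1* in the one that falls. These juveniles were among the fish clustered, so the opposite order of *KCNJ2* and *NR4A1* was partly set by selection. *KCNJ2*, an inward rectifier potassium channel, ran opposite to *NR4A1*, with 196 ± 103 CPM (SD) in *com*, 390 ± 44.0 CPM in hybrids and 2077 ± 467 CPM in *rhy*. Its log2 fold change for *com* over hybrid, -0.99 ± 0.26 (SE), missed the fold limit but passed without com104 (-1.37, adjusted p = 9.56e-05), comrhy60 (-1.02, adjusted p = 0.0207) or comrhy62 (-1.04, adjusted p = 0.019), when 2 genes of this list were called. The *com* fish with the least *NR4A1*, com104, stood apart from the other *com* fish in *KCNJ2*, at 374 CPM against 110 to 175 CPM, and in *SCN4AA*, at 4975 CPM against 2623 to 3301 CPM. Without com104 the log2 fold change of *NR4A1* for *com* over hybrid was 1.55 in place of 1.34.

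Markers of other cells also differed between the groups. The blood cell markers *LCP1*, *SIGLEC1* and *SLAMF9* summed to 1.65 to 3.48 CPM in *com*, 0.355 to 2.49 CPM in hybrids and 0 to 0.376 CPM in *rhy*, where *SLAMF9* was at 0 in every fish. *LCP1* had 77 counts over all *com* fish, 54 over all hybrids and 1 over all *rhy* fish. It was at 0 in comrhy59, comrhy60 and comrhy62. These levels carry a large counting error, also for the calls of *LCP1* as higher than in *rhy* counted below. *SIGLEC1* did not follow the order of the sum, with means of 0.181 CPM in *com*, 0.463 CPM in hybrids and 0.188 CPM in *rhy*. The vessel markers *CD34* and *SCARF1* summed to 64.3 to 128 CPM in *com*, 98.1 to 194 CPM in hybrids and 501 to 652 CPM in *rhy*. *CD34* carried this order, with means of 41.1 CPM in *com*, 98.7 CPM in hybrids and 564 CPM in *rhy*, whereas *SCARF1* had 39.98 CPM in *com*, 39.3 CPM in hybrids and 17.3 CPM in *rhy*. Muscle markers were *TMOD4*, *KLHL30* and *MYOCD*. They summed to 569 to 764 CPM in *com*, 527 to 709 CPM in hybrids and 329 to 553 CPM in *rhy*. *TMOD4* carried this order, with means of 540 CPM in *com*, 461 CPM in hybrids and 263 CPM in *rhy*. *KLHL30* ran the other way, with means of 124.7, 157.0 and 192.6 CPM in the same 3 groups. The pigment cell gene *TYRP1* measured 0.134 to 1.33 CPM in *com*, 1.995 to 5.09 CPM in hybrids and 14.2 to 42.5 CPM in *rhy*. Of 4 blood and vessel markers tested, 0 were higher and 1 lower for *com* over hybrid, 2 higher and 1 lower for *com* over *rhy*, and 2 higher and 1 lower for hybrid over *rhy*, where 9.08%, 22.8% and 12.1% of all genes were called. *SCARF1*, one of those higher in *com* than in *rhy*, fell under the fold limit without com104 (0.72, adjusted p = 0.00615). The part of these cells in the levels of *NR4A1* and *TIMELESS* was not tested.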

How the data were processed

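The members, the gene lists and the rules were chosen with earlier results of these data known. The authors extracted RNA with a kit for fibrous tissue, made strand-specific poly(A) libraries, used Trimmomatic 0.39 for trimming and ran RSEM on the *C. compressirostris* genome, also for *rhy* and hybrids; the aligner and its settings are not given in the sources used here. How many *rhy* reads this leaves unmapped was not analysed. The deposited expected counts, not normalized, were rounded to whole numbers. The deposited TPM values, scaled by the authors' RSEM run for length and depth, served for levels between genes and 1 alternative, and the deposited FPKM values were not used.

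Of 27561 models with any count, the 18489 with more than 10 counts in at least 2 libraries were scaled by TMM and fitted with edgeR 4.0.16 (R 4.3.3, quasi-likelihood, all 15 fish, 1 coefficient per group, common dispersion 0.113). Benjamini-Hochberg adjustment ran over all of them, and SE is the fold change over the root of F. The labels name no batch and no shared parents or tanks. Counts per library are given above and limit precision in *rhy* *NR4A1* most. The script was tested on simulated data. Names were matched by ID to the study's tables, after letters misread in some IDs were put right; 141 models were named. The named genes are the members, all listed genes, up to 4 neighbours by fold and the 5 nearest named profiles. Alternatives were DESeq2 1.42.0 size factors and test, 2 other filters, effective length, separate fits, TPM and leaving out each fish. One listed gene enters the counts but is not reported by name here. Adult fish and allelic depths were not analysed here.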

Additional observations from a re-analysis of the deposited data

Results flagged for a closer look

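For each of the members, the listed genes, the nearest named genes and the segment neighbours described above, it was checked whether 1 of the 5 fish of a group lay far from the other 4 (Dixon's ratio above 0.71). This held in 13 of 146 groups, and neither *NR4A1* nor *TIMELESS* was among them. The limit is passed by chance about 1 in 20 times for independent, normally distributed values. These groups share fish and include genes with very few counts, so that rate is no measure for the 13. Of the 13, 4 were com104, the *com* fish with the least *NR4A1* and *TIMELESS*: *KLHL30* at 190 CPM against 98.2 to 113 in the other *com* fish, *KCNJ2* at 374 CPM against 110 to 175, *SCN4AA* at 4975 CPM against 2623 to 3301 and *FADS6* at 102 CPM against 67.1 to 72.1. In the other *com* fish, *MYOCD* stood out in com121 at 4.19 CPM against 2.14 to 2.56, and *USP44* in com124 at 4.88 CPM against 6.66 to 7.09.

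Among hybrids, *PCDH11* stood out in comrhy62 at 16.4 CPM against 3.40 to 5.88, *COL4A6* in comrhy63 at 3.65 CPM against 2.05 to 2.44, and *RGS4* in comrhy59 at 3.37 CPM against 0.949 to 1.57. Among *rhy*, *PCDH11* stood out in rhy50 at 3.77 CPM against 0.421 to 1.10, and *CYR61* in rhy49 at 12.2 CPM against 0.562 to 3.37. *WDHD1* in rhy53 at 0.274 CPM and *LCP1* in rhy52 at 0.0803 CPM were the only *rhy* fish above 0 for these genes.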

How the results depend on the processing

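Every log2 fold change of *NR4A1* and *TIMELESS* kept its direction and moved by less than the spread between fish under all alternatives run. Leaving out 1 fish gave 1.13 to 1.56 (*NR4A1*, *com* over hybrid), 8.26 to 8.81 (*com* over *rhy*) and 6.93 to 7.47 (hybrid over *rhy*), and for *TIMELESS* 2.17 to 2.55, 1.96 to 2.33 and -0.36 to -0.12 in the same contrasts. The farthest of the others was the difference of mean log2(TPM + 1), at 7.68 for *NR4A1* in *com* over *rhy*, where the added 1 weighs on the low *rhy* values. Of 204 other alternatives for all results, 199 left the result as it was and 5 moved a count. The 1 segment neighbour called for *com* over hybrid became 0 in a fit of those groups alone, and 0 to 1 without 1 fish, the contig count 1 to 4. Stimulus-induced genes called for *com* over hybrid became 2 with DESeq2's test (1 to 2 without 1 fish), and for hybrid over *rhy* 2 with DESeq2's test and 2 in a fit of those groups alone (1 to 3 without 1 fish). The calls added for hybrid over *rhy* were lower in hybrids. Muscle and electrocyte genes called for *com* over hybrid became 2 with no filter (1 to 2 without 1 fish), and replication genes called for *com* over *rhy* were 1 to 2 without 1 fish. The cause was not tested. The call of *HPGD* for hybrid over *rhy* was lost without any of 13 fish, and that of *LCP1* without any of 5. Low counts limit the *rhy* level of *NR4A1*. No paired analysis was possible because the fish numbers in the labels are not shared between groups.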
